A study of Homo sapiens with 6 samples.

Results

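Adhesion G protein-coupled receptors are membrane proteins with a long extracellular part that binds neighbouring cells or matrix, a domain that usually cleaves itself just outside the membrane, and a bundle of membrane-spanning helices that couples to G proteins. Ligand binding or pulling can expose a short tethered peptide at the cleavage site, which then activates the helix bundle. The family is divided into subfamilies A to G, L and V, with roles in Wnt signalling, engulfment of dying cells, planar cell polarity, myelination, synapse formation and blood vessel growth. Members were all genes whose official symbol begins with ADGR or is CELSR1, CELSR2 or CELSR3, found through the NCBI gene identifiers of the count files, which gave 39 of 40895 distinct genes. Of these, 31 were protein-coding, 6 were long non-coding RNAs and 2 were transcribed pseudogenes.

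The cells were A375SM, a metastatic subline of the human melanoma line A375, and polyA RNA was sequenced from 3 libraries with a short hairpin RNA against PRAME (shPRAME) and 3 libraries with a control hairpin (shCtrl). PRAME is a cancer-testis antigen that is known to repress the retinoic acid receptor and to act as a substrate receptor of a ubiquitin ligase. All libraries carried the genotype label WT, the tissue label skin and a single batch label, and a hairpin lowers a transcript without removing its gene. No label names the hairpins' number or sequence. Nothing in the labels ties the libraries to separate transductions, so p-values describe library-to-library spread that may be technical.

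Library totals lay between 30842788 and 34107332 counts, and the scaling factors of the libraries between 0.978 and 1.02. PRAME had 1803, 1993 and 1857 counts in the shPRAME libraries, against 5623, 5356 and 5083 counts in the shCtrl libraries. That was 56.4 ± 2.30 CPM (counts scaled to the TMM-corrected library total) in shPRAME and 165.0 ± 1.26 CPM in shCtrl (SD, n = 3 each), without overlap. The log2 fold change was −1.55 ± 0.03 (SE; edgeR adjusted p = 4.85e-17). Of 15954 tested genes, 74.4% passed at an adjusted p under 0.05, 37.7% higher and 36.8% lower in shPRAME, so that passing by itself set a gene little apart from the rest. Of the 12 melanoma and melanocyte markers, SOX10, a transcription factor of the lineage, had 275 CPM in shPRAME and 266 CPM in shCtrl, and did not pass. ERBB3, a receptor tyrosine kinase, rose to 603.3 CPM in shPRAME, against 322 CPM in shCtrl, and the endothelin receptor gene EDNRB to 115.5 CPM, against 35.9 CPM. S100B, a calcium-binding protein, fell to 28.2 CPM in shPRAME, against 54.0 CPM in shCtrl, and MITF, the regulator of the melanocyte lineage, to 37.7 CPM, against 44.6 CPM. The pigment genes were nearly silent: TYR had 0 counts in all libraries, and MLANA, PMEL, TYRP1 and DCT averaged under 1 CPM in both groups. Over that list 4 of the 7 tested genes rose, 2 fell and 1 did not pass (median log2 fold change 0.48).

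Of the 39 members, 9 had 0 counts in every library, 10 had counts but too few to be tested, and 20 were tested, 19 of them protein-coding. In shPRAME 12 of the tested members rose, 5 fell and 3 did not pass, so that 17 of 20 (85%) passed where 74.4% of all tested genes did. At least 2-fold higher were 7 members and at least 2-fold lower were 3, beside 10.1% and 8.43% of all tested genes. In 17 of the 20 the shPRAME and shCtrl libraries did not overlap, which was the case for 76.5% of all tested genes. The median log2 fold change was 0.44 over the tested members, against 0.01 over all tested genes, and the median size of change, whatever its sign, was 1.10 against 0.38. The filter on low counts asked for 0.297 CPM or more in at least 3 libraries, and for 5 members no library of the other group reached it: ADGRF4, ADGRL2, ADGRL3 and ADGRV1 entered through shPRAME and ADGRL4 through shCtrl. Those 5 had to differ, and they raise the counts and medians just given. Of the remaining 15 members 8 rose, 4 fell and 3 did not pass, and a change of at least 2-fold was seen in 3 of those that rose and 2 of those that fell. Their median log2 fold change was 0.34 and their median size of change 0.68.

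The summed level of the family was 905, 907 and 891 CPM in the shPRAME libraries, against 594, 587 and 582 CPM in the shCtrl libraries. The groups did not overlap, and ADGRG6 alone made up 49.6 ± 0.47% of the sum in shPRAME and 47.4 ± 0.66% in shCtrl. These sums and shares are of CPM not scaled for transcript length. By subfamily, the sums in shPRAME and shCtrl were 136.9 and 62.1 CPM for A, 18.4 and 14.7 CPM for B, and 41.0 and 28.8 CPM for C. Subfamily E summed to 78.5 CPM in shPRAME and 87.2 CPM in shCtrl, F to 1.10 and 7.07 CPM, G to 551 and 342.0 CPM, L to 67.2 and 45.6 CPM, and V to 6.57 and 0 CPM. Subfamilies E and F were therefore the ones with a lower mean sum in shPRAME, while D stood at 0.078 and 0.0099 CPM with no member tested. An average of 1 CPM or more was reached by 15 members in shPRAME and by 15 in shCtrl, with 11 members in both.

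**Figure D1:**
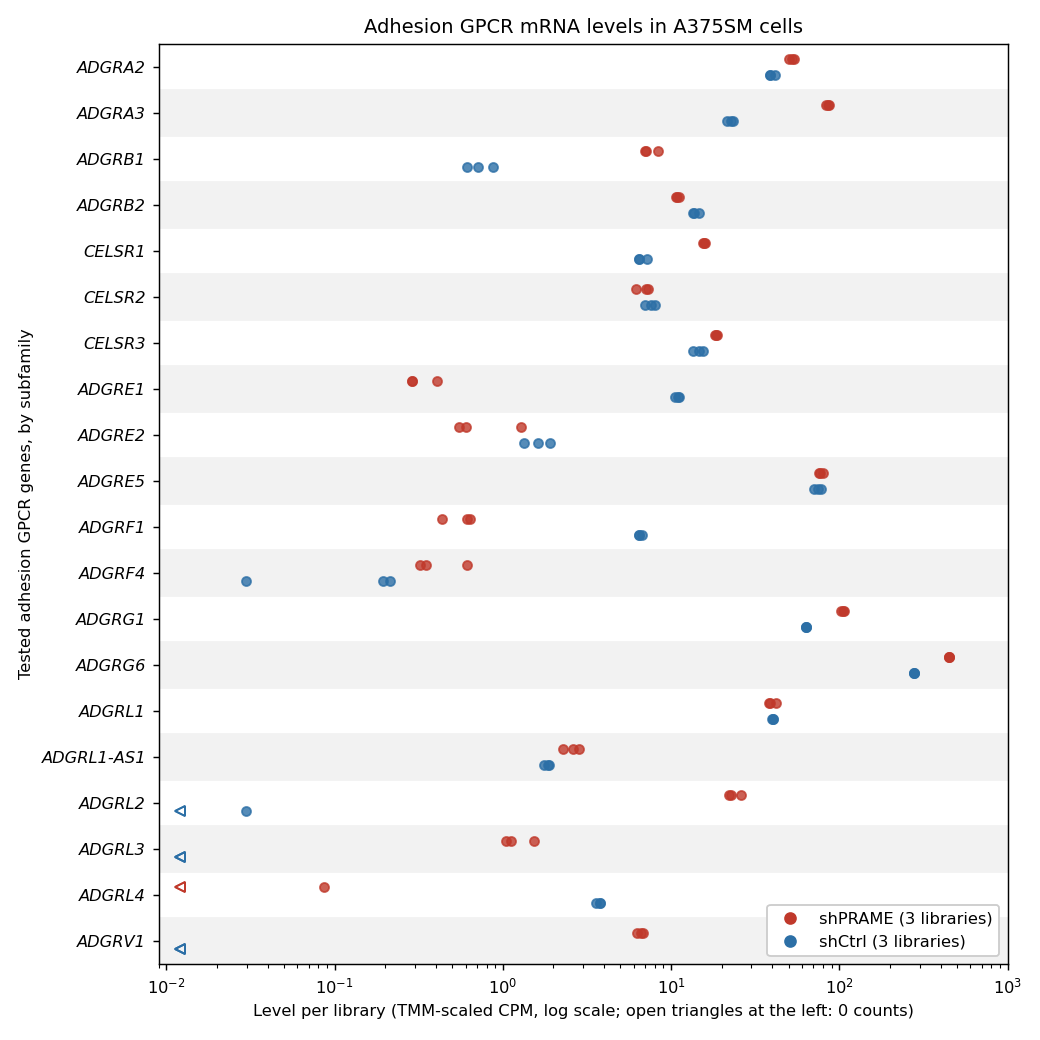
Levels of the tested members in each library, with TMM-scaled CPM on a log axis, shPRAME above shCtrl, and open triangles at the left for libraries with 0 counts. ADGRG6 is the highest member in both groups (447 CPM in shPRAME, 278 CPM in shCtrl), and ADGRV1, ADGRL3 and ADGRL2 have points at 0 in shCtrl while ADGRL4 has them in shPRAME.

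The 250 bases before the annotated start were available for 26 members, in 42 windows (RefSeq, GRCh38.p14), and those of 6 members with a single annotated start are printed to set gains and losses side by side, 5′ to 3′ in the direction of the gene with each CpG in capitals. A CpG is the pair of bases at which vertebrate DNA is methylated, and promoters rich or poor in it are usually told apart. Over all 27305 genes with such a window the median was 11 CpG, with quartiles of 3 and 23. The windows are those of ADGRV1 (chr5:90558547-90558796, plus strand) and ADGRA3 (chr4:22516067-22516316, minus strand), which rose, of ADGRL4 (chr1:79006731-79006980, minus strand), ADGRE1 (chr19:6887329-6887578, plus strand) and ADGRF1 (chr6:47042333-47042582, minus strand), which fell, and of the most abundant member ADGRG6 (chr6:142301757-142302006, plus strand), which rose.
ADGRV1: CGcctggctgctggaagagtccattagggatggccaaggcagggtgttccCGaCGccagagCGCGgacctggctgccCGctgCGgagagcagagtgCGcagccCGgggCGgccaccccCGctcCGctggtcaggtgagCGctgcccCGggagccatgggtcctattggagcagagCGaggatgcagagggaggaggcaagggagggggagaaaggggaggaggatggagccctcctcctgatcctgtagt
ADGRA3: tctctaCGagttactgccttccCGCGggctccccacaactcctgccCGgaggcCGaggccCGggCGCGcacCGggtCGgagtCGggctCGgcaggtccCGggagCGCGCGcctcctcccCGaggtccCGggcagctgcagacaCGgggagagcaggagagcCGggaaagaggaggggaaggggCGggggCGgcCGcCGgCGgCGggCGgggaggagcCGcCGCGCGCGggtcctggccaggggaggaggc
ADGRL4: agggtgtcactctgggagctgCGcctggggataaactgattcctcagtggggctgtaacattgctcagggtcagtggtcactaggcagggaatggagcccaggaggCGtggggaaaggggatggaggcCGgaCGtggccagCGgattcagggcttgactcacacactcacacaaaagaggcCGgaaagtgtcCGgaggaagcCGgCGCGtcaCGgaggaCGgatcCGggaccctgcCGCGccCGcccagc
ADGRE1: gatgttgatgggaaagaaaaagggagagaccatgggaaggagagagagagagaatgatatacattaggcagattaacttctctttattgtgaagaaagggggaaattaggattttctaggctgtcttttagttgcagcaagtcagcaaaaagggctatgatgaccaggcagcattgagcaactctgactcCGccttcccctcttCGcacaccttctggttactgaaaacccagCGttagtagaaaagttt
ADGRF1: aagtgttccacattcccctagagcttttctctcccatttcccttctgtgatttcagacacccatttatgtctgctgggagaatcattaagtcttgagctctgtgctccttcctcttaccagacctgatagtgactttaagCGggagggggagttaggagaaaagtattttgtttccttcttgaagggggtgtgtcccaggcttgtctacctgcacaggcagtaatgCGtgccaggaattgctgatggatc
ADGRG6: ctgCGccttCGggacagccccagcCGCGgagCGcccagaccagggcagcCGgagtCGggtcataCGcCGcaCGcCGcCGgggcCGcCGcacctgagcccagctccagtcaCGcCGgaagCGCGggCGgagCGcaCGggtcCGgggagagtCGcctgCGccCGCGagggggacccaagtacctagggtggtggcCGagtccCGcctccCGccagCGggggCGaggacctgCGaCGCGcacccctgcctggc

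The printed windows held 15 CpG for ADGRV1, 32 for ADGRA3, 34 for ADGRG6, 16 for ADGRL4, 3 for ADGRE1 and 2 for ADGRF1. CpG-rich windows stood before members of either direction: besides ADGRA3 and ADGRG6, which rose, ADGRB2, which fell, had 38. CpG-poor windows did likewise, since ADGRF4, which rose, had 1, and the 3 windows of ADGRG1, which rose, had 4, 6 and 6. ADGRL2, with 8 annotated starts, had windows of 1 to 23 CpG. CELSR2, which did not pass, had 23 and CELSR3, which rose, had 25.

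Searched on both strands, the GC box GGGCGG stood in a window of 16 of the 26 members, against 42.3% of all genes, and in the printed windows of ADGRV1, ADGRA3, ADGRG6 and ADGRL4. The TFAP2 letters GCCNNNGGC stood in 9 of 26, against 19.7% of all genes, and in those of ADGRV1 and ADGRA3, while the AP-1 letters TGANTCA stood in 4 of 26, against 6.6%, and in that of ADGRL4. The MITF letters CACGTG stood in 0 of 26, against 6.49% of all genes. The window of ADGRE1 held none of the 10 motifs searched. The TEAD letters CATTCC stood in 3 of 26, against 11.9% of all genes, and in the printed windows of ADGRF1 and ADGRL4. The shares of all genes are over 1 window each, the member counts over any of a member's windows, and a match is a description of the letters.

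**Figure D2:**
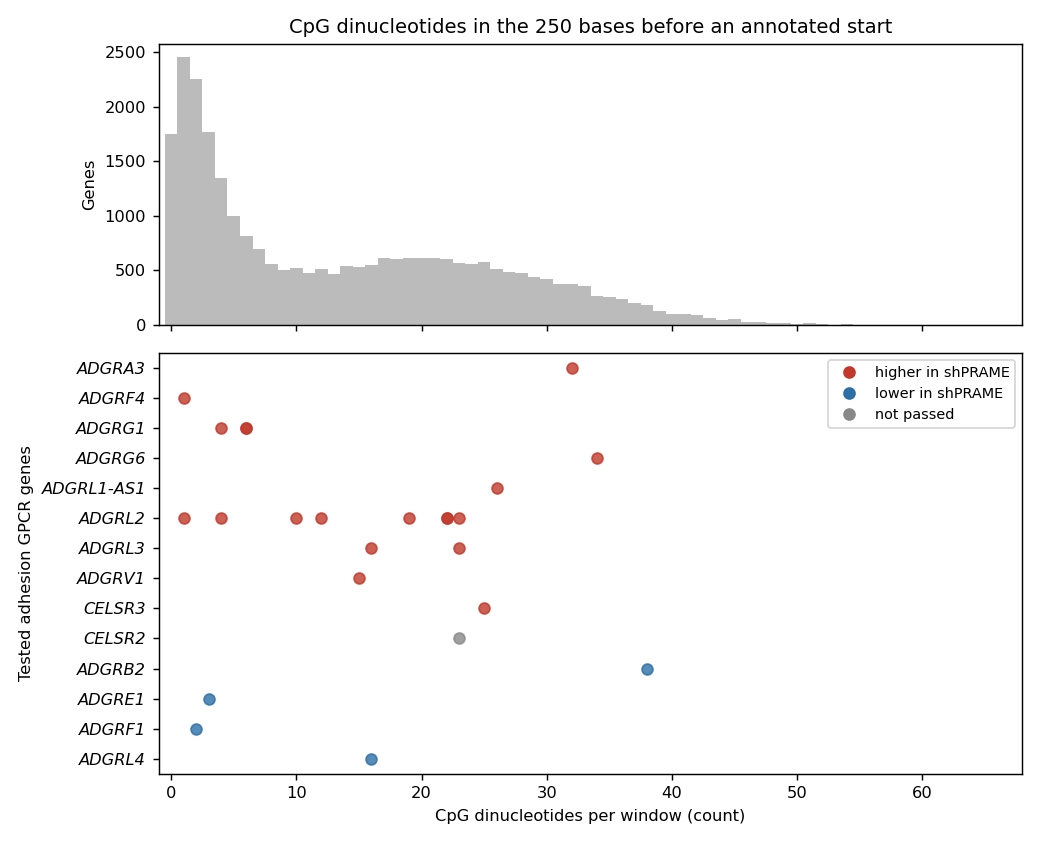
The upper panel is a histogram of the number of CpG pairs in the 250 bases before the start of all genes, and the lower panel gives that number for each annotated start of the tested members with a window, 1 point per start. Members that rose and members that fell both span low and high counts, from 1 in ADGRF4 to 34 in ADGRG6 among those that rose and from 2 in ADGRF1 to 38 in ADGRB2 among those that fell.

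The latrophilins ADGRL1, ADGRL2 and ADGRL3 are adhesion receptors of synapses that bind teneurins and FLRT proteins on the facing cell. Their subfamily L, which also holds ADGRL4, had 3 of the 4 tested members with 3 counts or fewer in 1 group. ADGRL2 (latrophilin 2, chr1:81306132-81993932) had 813, 762 and 787 counts in the shPRAME libraries, against 1, 0 and 0 counts in the shCtrl libraries. It was thus well expressed in every shPRAME library and practically undetected in shCtrl. Its levels of 26.0, 22.1 and 22.8 CPM in shPRAME gave a ratio of 2293 to shCtrl, with an exact 95% counting interval of 411.2 to 90620 (edgeR adjusted p = 9.72e-17). The size of that ratio rests on the 1 count in shCtrl library 1: without that library the shCtrl group had 0 counts, and ADGRL2 was at least 499-fold higher in shPRAME against a floor of 3 counts. ADGRL3 (latrophilin 3, chr4:61200326-62078335) had 35, 53 and 36 counts in shPRAME and 0 counts in all 3 shCtrl libraries. Set against a floor of 3 counts over the shCtrl group, it was at least 40.1-fold higher in shPRAME (adjusted p = 2.64e-08). ADGRL1 (latrophilin 1), by contrast, overlapped between groups, with 42.2, 38.9 and 38.1 CPM in shPRAME and 40.3, 39.5 and 40.4 CPM in shCtrl. Its log2 fold change was −0.01 ± 0.04 (adjusted p = 0.784), and its sign turned to 0.04 when libraries were scaled by their totals alone.

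ADGRL4 (chr1:78889764-79006730), also called ELTD1 and known as an endothelial receptor that promotes vessel sprouting, went the opposite way. It had 0, 0 and 3 counts in the shPRAME libraries, against 128, 123 and 111 counts in the shCtrl libraries, which was 3.79, 3.76 and 3.60 CPM. It was readily counted in every shCtrl library and nearly absent from shPRAME. The ratio was 124.3-fold lower in shPRAME, with an exact 95% counting interval of 42.2 to 605.5 (adjusted p = 2.13e-11). All 3 shPRAME counts came from library 3, and without it ADGRL4 was at least 81.5-fold lower in shPRAME against the same floor. ADGRL4 and ADGRL2 lie on the same arm of chromosome 1 with 2299 kb and 8 genes between them, none of which was tested, so that these 2 oppositely changed members were next to each other among the tested genes. The nearest tested genes on their outer sides were IFI44, at 0.111 CPM in shPRAME and 0.690 CPM in shCtrl, and TTLL7, at 6.93 and 5.17 CPM. ADGRL4 thus shared its direction with IFI44 (log2 fold change −2.61) and ADGRL2 with TTLL7 (0.43), and the median over the 40 tested genes nearest to each member was 0.01 and −0.01.

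Of 10 endothelial markers set beside ADGRL4, CDH5, ERG and CLDN5, which define that cell type, had 0 counts in all libraries. The list summed to 5.09 to 5.97 CPM in the shPRAME libraries, against 2.27 to 3.40 CPM in the shCtrl libraries, with 2 of 4 tested genes higher, 1 lower and 1 not passing (median 0.38). The angiopoietin receptor gene TEK had 281 counts in shPRAME and 3 in shCtrl, which is opposite to ADGRL4. With so few counts in shCtrl, TEK could be tested only through shPRAME and had to differ. ROBO4, a guidance receptor of endothelium named after its values were seen, fell as ADGRL4 did, with 20 counts in shPRAME and 87 in shCtrl (log2 fold change −2.14 ± 0.42, adjusted p = 2.12e-04). The part of these markers in the ADGRL4 result was not tested. In RNA from whole cultures, fewer cells of a type and less RNA per cell cannot be told apart.

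ADGRL1-AS1, a long non-coding RNA whose gene overlaps ADGRL1 on chromosome 19, had 2.27, 2.61 and 2.84 CPM in shPRAME and 1.89, 1.87 and 1.75 CPM in shCtrl. The groups did not overlap, and the log2 fold change was 0.49 ± 0.14 (adjusted p = 0.00586), while DESeq2 gave an adjusted p of 0.0636. No source used here states whether counting used strand, so reads of this RNA and of ADGRL1 cannot be told apart where the genes overlap.

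ADGRV1 (chr5:90558797-91164437), the very large receptor of the hair cell ankle links, is the single member of subfamily V. It had 214, 227 and 217 counts in the shPRAME libraries, against 0 counts in all 3 shCtrl libraries. The shPRAME levels of 6.85, 6.59 and 6.29 CPM lay close together, and against the floor of 3 counts over the shCtrl group they were at least 213.0-fold higher (adjusted p = 4.13e-13). Its tested neighbours LYSMD3 and LUCAT1 both fell, with log2 fold changes of −0.44 and −1.94, and the median over its 40 nearest tested genes was −0.30. Its ankle link partners were part of a list of 13 scaffold and hearing genes, of which 8 of 12 tested rose, 2 fell and 2 did not pass (median 0.51). Whirlin (WHRN) had 10.3 ± 0.58 CPM in shPRAME and 6.56 ± 0.13 CPM in shCtrl. PDZD7, another partner, did not pass, at 5.24 CPM in shPRAME and 5.36 CPM in shCtrl (adjusted p = 0.791). WHRN and PDZD7 were singled out as partners of ADGRV1 after the values were seen.

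Subfamily A holds co-receptors and orphan receptors linked to Wnt signalling, and both of its tested members rose. ADGRA3 (GPR125, chr4:22387376-22516066), whose printed window held 32 CpG, is an orphan receptor that binds the scaffold protein DLG1. It had 86.6, 85.1 and 82.8 CPM in the shPRAME libraries, against 23.3, 22.6 and 21.4 CPM in the shCtrl libraries. The shPRAME values lay far above all shCtrl values, with a 3.78-fold difference and a log2 fold change of 1.92 ± 0.04 (adjusted p = 4.69e-17). Its nearest tested genes, the non-coding LOC124900841 and LOC105374524, were also higher, with log2 fold changes of 3.63 and 2.22, and the median over its 40 nearest tested genes was 0.81. With that regional median removed from the fit its log2 fold change was 1.11 ± 0.04 (adjusted p = 8.64e-14). ADGRA2 (GPR124), which with RECK forms the receptor for WNT7 ligands on brain endothelium, had 52.4, 53.8 and 50.0 CPM in shPRAME and 41.2, 38.9 and 39.0 CPM in shCtrl. The groups did not overlap and the log2 fold change was 0.39 ± 0.04 (adjusted p = 1.03e-07). The end of its gene overlaps that of BRF2, which had a similar log2 fold change of 0.36, so the reads of the shared stretch are uncertain. ADGRA1 had 0 counts in all libraries.

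Subfamily B, the BAI receptors, is known for recognising phosphatidylserine on dying cells (ADGRB1) and for binding C1q-like proteins at synapses (ADGRB3). ADGRB1 (BAI1) had 8.39, 7.05 and 7.01 CPM in the shPRAME libraries, against 0.710, 0.612 and 0.876 CPM in the shCtrl libraries. All shPRAME values lay well above the shCtrl values, at 10.2-fold, with a log2 fold change of 3.35 ± 0.15 (adjusted p = 2.15e-12). ADGRB2 (BAI2) had 11.2, 10.8 and 10.7 CPM in shPRAME and 14.7, 13.5 and 13.6 CPM in shCtrl, and fell by 0.35 ± 0.07 on the log2 scale (adjusted p = 1.29e-04). Its 40 nearest tested genes had a median of −0.27, and with that regional median removed the call ended, at a log2 fold change of −0.09 (adjusted p = 0.26). ADGRB3 had 0 counts in shPRAME and 4 in shCtrl and was not tested.

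The CELSR receptors (subfamily C) are the vertebrate counterparts of the fly protein Flamingo and align cells within a sheet. CELSR1 had 15.7, 15.9 and 15.5 CPM in the shPRAME libraries, against 7.19, 6.49 and 6.49 CPM in the shCtrl libraries. It was clearly higher in every shPRAME library, 2.33-fold, with a log2 fold change of 1.22 ± 0.07 (adjusted p = 7.84e-11). CELSR3 had 18.7, 18.2 and 18.5 CPM in shPRAME and 14.7, 15.4 and 13.6 CPM in shCtrl, a log2 fold change of 0.34 ± 0.06 (adjusted p = 7.79e-05). CELSR2 had 7.14, 7.34 and 6.20 CPM in shPRAME and 6.98, 7.56 and 8.04 CPM in shCtrl. Its groups overlapped and it did not pass (log2 fold change −0.13 ± 0.10, adjusted p = 0.246).

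Of 13 planar cell polarity genes that act with CELSR receptors, 12 were tested, of which 7 rose, 4 fell and 1 did not pass (median 0.29). Of all tested genes, 37.7% rose and 36.8% fell. FAT4, which rose, was tested through shPRAME alone, since no shCtrl library reached the filter of 0.297 CPM, so it had to differ. The receptor gene FZD6 had 170.2 ± 1.75 CPM in shPRAME and 74.5 ± 1.88 CPM in shCtrl (log2 fold change 1.19, adjusted p = 3.31e-16). PRICKLE1, a cytoplasmic polarity protein, had 15.4, 14.9 and 16.1 CPM in shPRAME and 0.178, 0.184 and 0.389 CPM in shCtrl. Its relative PRICKLE2 moved the other way, with 24.9 ± 1.36 CPM in shPRAME and 50.2 ± 2.61 CPM in shCtrl. DACT1, a binding partner of Dishevelled, fell to 4.40 ± 0.31 CPM in shPRAME, against 19.5 ± 2.07 CPM in shCtrl (log2 fold change −2.15, adjusted p = 8.58e-13). The core gene VANGL2 was too low to be tested.

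Subfamily E is best known from myeloid cells, and none of its members rose. ADGRE1 (chr19:6887579-6940450), the human counterpart of the mouse macrophage antigen F4/80, had 9, 10 and 14 counts in the shPRAME libraries, against 373, 364 and 326 counts in the shCtrl libraries. As levels these were 0.288, 0.290 and 0.406 CPM in shPRAME and 11.04, 11.14 and 10.57 CPM in shCtrl. Each group was tight and they lay far apart, 33.3-fold lower in shPRAME, with a log2 fold change of −5.04 ± 0.15 (adjusted p = 5.06e-15). Its 40 nearest tested genes had a median of −0.02, and its printed window was the CpG-poor one with none of the motifs. ADGRE5 (CD97), which binds the complement regulator CD55, stayed within its spread at 76.9, 79.7 and 75.4 CPM in shPRAME and 78.0, 75.1 and 70.6 CPM in shCtrl (log2 fold change 0.05 ± 0.04, adjusted p = 0.216). It passed as higher when libraries were scaled by their totals alone (log2 fold change 0.10, adjusted p = 0.0241) and with the regional median removed (0.16, adjusted p = 0.000852). ADGRE2 (EMR2) had 0.608, 1.28 and 0.550 CPM in shPRAME and 1.63, 1.90 and 1.33 CPM in shCtrl, a log2 fold change of −0.99 ± 0.27 (adjusted p = 2.96e-03). ADGRE2 is uncertain, since it shares near-identical stretches with ADGRE5 and overlaps the more abundant ZNF333. ADGRE3 had 0 counts in all libraries.

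Beside ADGRE1 stood 12 leukocyte markers, of which CD3E, MS4A1, FCGR3A and TYROBP had 0 counts in all libraries. They summed to 73.3 to 75.1 CPM in the shPRAME libraries, against 44.9 to 47.3 CPM in the shCtrl libraries, most of it the lysosomal CD68 (70.7 CPM in shPRAME, 43.9 CPM in shCtrl). Of 4 tested markers 3 rose and 1, the integrin gene ITGAX, fell (0.727 ± 0.056 CPM in shPRAME, 1.67 ± 0.12 CPM in shCtrl), with a median of 2.40. ITGAX thus shared the direction of ADGRE1, while the sum, most of it CD68, did not. The part of these markers in the ADGRE1 result was not tested. The pan-leukocyte gene PTPRC had 92 counts in shPRAME and 0 in shCtrl, at least 29.8-fold higher. With 0 counts in shCtrl it could be tested only through shPRAME and had to differ.

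Subfamily F has few known ligands. ADGRF1 (GPR110, chr6:46997708-47042332), a receptor for the lipid synaptamide, had 0.640, 0.435 and 0.608 CPM in the shPRAME libraries, against 6.45, 6.76 and 6.42 CPM in the shCtrl libraries. No library of either group came near the other, and the level was 11.7-fold lower in shPRAME, with a log2 fold change of −3.54 ± 0.15 (adjusted p = 1.21e-12). Its tested neighbours PLA2G7 and TNFRSF21 were also lower, with log2 fold changes of −1.06 and −1.31, while the median over its 40 nearest tested genes was 0.27, and its printed window held 2 CpG. ADGRF4 (GPR115), an orphan receptor of keratinocytes, had 10, 21 and 12 counts in shPRAME and 1, 7 and 6 counts in shCtrl. Its log2 fold change of 1.55 ± 0.51 (adjusted p = 0.0115) rested on few counts and lost its call without shPRAME library 2 (adjusted p = 0.082), without shCtrl library 1 (0.0586) and in DESeq2 (0.0563). ADGRF3 had 9 counts in shPRAME and 25 in shCtrl, and ADGRF5, known from lung surfactant control, had 3 and 12, a ratio of 4.12 with an interval of 1.11 to 22.8.

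Subfamily G had the highest summed CPM of the family, without scaling for transcript length. ADGRG6 (GPR126, chr6:142302007-142446261), which drives Schwann cells to myelinate and binds collagen IV, laminin-211 and the prion protein, had 446.4, 447.2 and 446.3 CPM in the shPRAME libraries. The shCtrl libraries had 277.4, 277.8 and 279.6 CPM. The libraries of each group were almost equal, and the 1.60-fold difference stood as a log2 fold change of 0.68 ± 0.02 (adjusted p = 1.49e-14). Its neighbours VTA1 and HIVEP2 fell, with log2 fold changes of −0.41 and −1.27. ADGRG1 (GPR56, chr16:57619738-57665567), a receptor for collagen III and transglutaminase 2 that is known to restrain melanoma growth in mouse xenografts, had 101.7, 107.0 and 104.5 CPM in shPRAME and 63.7, 63.6 and 63.6 CPM in shCtrl. It was higher in all shPRAME libraries, 1.64-fold, with a log2 fold change of 0.71 ± 0.03 (adjusted p = 7.61e-13). ADGRG3, ADGRG4, ADGRG5 and ADGRG7 had from 2 to 9 counts per group and were not tested, and ADGRG2 had 0 counts.

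Of 10 Schwann cell and neuron markers, 8 were tested, of which 5 rose and 3 fell (median 0.21). Their sum was 762 to 795 CPM in the shPRAME libraries, against 880.1 to 890.4 CPM in the shCtrl libraries, while ADGRG6 was higher in shPRAME. The myelin gene PMP22 (288 ± 13.0 CPM in shPRAME, 453 ± 2.70 CPM in shCtrl) fell, whereas EGR2, the transcription factor of myelination, rose to 5.31 ± 0.31 CPM in shPRAME, against 0.715 ± 0.17 CPM in shCtrl. The synaptic vesicle gene SYT1 was higher, at 48.2 ± 2.41 CPM in shPRAME and 2.99 ± 0.25 CPM in shCtrl, and the neuronal STMN2 had 0 counts. The part of these marker genes in the ADGRG6 result was not tested.

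In subfamily D, ADGRD1 (GPR133) had 8 counts in shPRAME and 1 in shCtrl, a ratio of 7.77 with an interval of 1.04 to 344.7, and ADGRD2 had 0. The remaining members without counts in any library were ADGRA1-AS1, ADGRD1-AS1, ADGRF2P, ADGRF5-AS1 and ADGRL3-AS1. The pseudogene ADGRE4P had 1 count in shPRAME and 3 in shCtrl, and ADGRB3-DT had 1 and 0. Where a member had 0 counts in a library, up to 3 counts remain possible there by counting error.

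**Figure D3:**
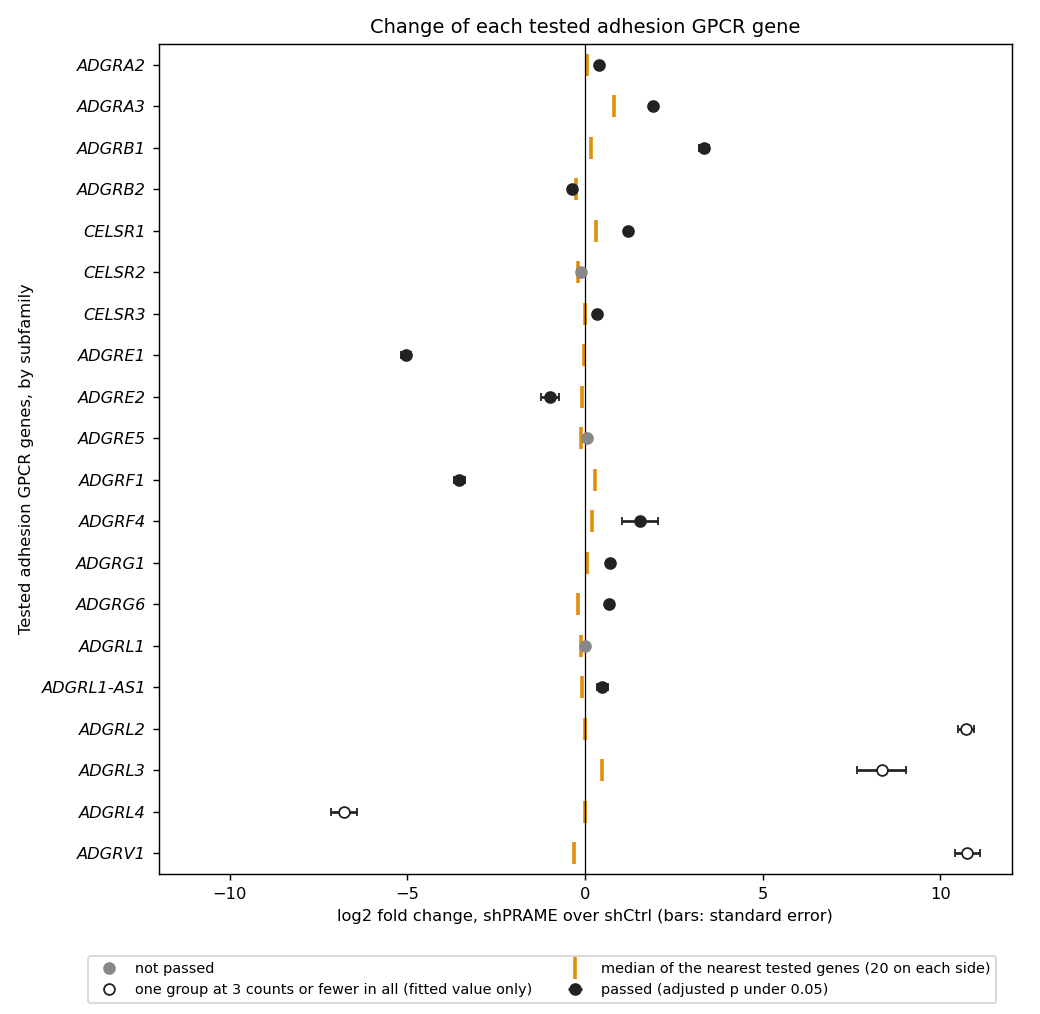
Fitted log2 fold change of each tested member, shPRAME over shCtrl, with its standard error, and the median over the nearest tested genes as an orange bar. Open circles are members with 3 counts or fewer in 1 group, whose position is a fitted value only; ADGRE1 at −5.04 and ADGRB1 at 3.35 lie far from their neighbours' medians of −0.02 and 0.18, while ADGRB2 at −0.35 lies near its −0.27.

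Levels of different members can be compared only per transcript length, here CPM per kb of the longest transcript. In shPRAME the order was led by ADGRG6 at 63.6 ± 0.072 CPM per kb, followed by ADGRG1 (24.5 ± 0.61), ADGRE5 (24.3 ± 0.68), ADGRA3 (18.6 ± 0.41) and ADGRA2 (8.30 ± 0.30). ADGRG1 and ADGRE5 did not differ beyond their spread in shPRAME. In shCtrl ADGRG6 also led at 39.6 ± 0.16 CPM per kb, followed by ADGRE5 (23.4 ± 1.16), ADGRG1 (15.0 ± 0.0098), ADGRA2 (6.33 ± 0.21), ADGRL1 (5.10 ± 0.059) and ADGRA3 (4.92 ± 0.20). There ADGRL1 and ADGRA3 did not differ beyond their spread. ADGRL2 took place 7 in shPRAME, at 3.75 ± 0.33 CPM per kb, a place held in shCtrl by ADGRE1, at 3.49 ± 0.096.

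**Figure D4:**
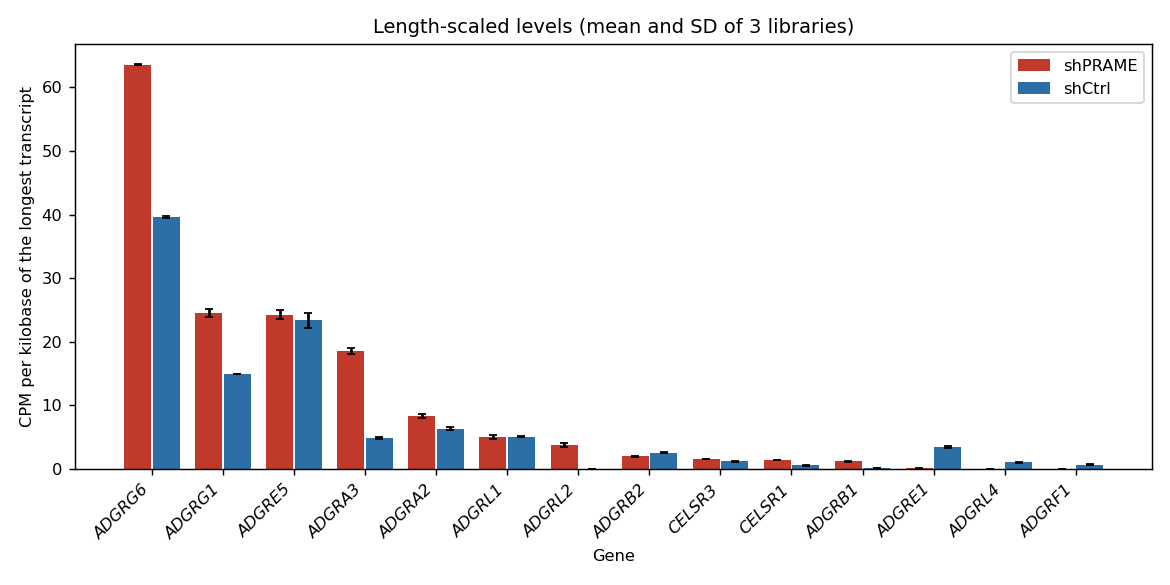
Bars are the mean level in CPM per kb of the longest transcript over the 3 libraries of shPRAME (left) and shCtrl (right), and error bars are the SD. ADGRG6 leads in both groups, at 63.6 CPM per kb in shPRAME and 39.6 CPM per kb in shCtrl, and ADGRA3 stands at 18.6 in shPRAME and 4.92 in shCtrl.

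Among the listed ligands and partners of the family more genes were higher than lower. The list was chosen with earlier results of these data known, and it leaves out the collagen IV genes. Of its 29 genes, 19 were tested, of which 14 rose, 2 fell and 3 did not pass. The median log2 fold change was 1.27, against 0.01 over all tested genes, of which 74.4% passed. COL3A1 was tested through shPRAME alone, since no shCtrl library reached the filter of 0.297 CPM, so it had to differ. TENM4, C1QL2, C1QL3 and WNT7A had 0 counts in all libraries. Apart from FLRT3, PTK7, TENM1 and TGM2, the genes of this list named here were chosen after their values were seen, as the known partners of a described receptor.

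For the latrophilins, all 3 FLRT genes rose. FLRT3 had 109.4, 108.5 and 104.1 CPM in the shPRAME libraries, against 31.4, 27.9 and 32.1 CPM in the shCtrl libraries, without overlap (log2 fold change 1.82 ± 0.04, adjusted p = 3.27e-16). FLRT2 had 48.3 ± 1.11 CPM in shPRAME and 19.1 ± 0.45 CPM in shCtrl, and FLRT1 had 4.36 ± 0.26 and 0.542 ± 0.15 CPM. The teneurins split. TENM3 had 62.3 ± 3.30 CPM in shPRAME and 27.6 ± 1.74 CPM in shCtrl (log2 fold change 1.17), while TENM1 had 1.06, 0.870 and 0.753 CPM in shPRAME and 4.44, 4.07 and 4.44 CPM in shCtrl (−2.27 ± 0.15, adjusted p = 4.60e-10). TENM2 was too low to be tested. Of the neurexins, which also bind latrophilins, NRXN2 rose to 2.36 ± 0.15 CPM in shPRAME, against 0.626 ± 0.037 CPM in shCtrl, and NRXN3 did not pass at 4.49 ± 0.58 and 5.26 ± 0.47 CPM (adjusted p = 0.0910).

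For ADGRG1, the ligands moved in opposite directions. COL3A1, the chain of collagen III, had 256 counts in shPRAME and 3 in shCtrl, a ratio of 82.9 with an exact 95% counting interval of 28.0 to 404.4. TGM2, transglutaminase 2, had 145.3, 151.7 and 168.9 CPM in the shPRAME libraries, against 312.5, 310.2 and 310.4 CPM in the shCtrl libraries. TGM2 was lower in every shPRAME library (log2 fold change −1.001 ± 0.04, adjusted p = 2.36e-13). For ADGRG6, the prion protein gene PRNP had 424 ± 9.91 CPM in shPRAME and 223 ± 2.46 CPM in shCtrl, and LAMA2, the heavy chain of laminin-211, had 6.61 ± 0.60 and 0.636 ± 0.038 CPM.

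CD55, the ligand of ADGRE5, had 104.3 ± 3.52 CPM in shPRAME and 43.2 ± 2.34 CPM in shCtrl (log2 fold change 1.27, adjusted p = 1.20e-14), beside a receptor that did not pass. The C1q-like genes C1QL1 (9.44 ± 0.57 CPM in shPRAME, 3.49 ± 0.34 CPM in shCtrl) and C1QL4 (1.75 ± 0.18 and 0.610 ± 0.12 CPM) rose, while their receptor ADGRB3 was not tested. RTN4R and RTN4RL2 of the same list did not pass, with log2 fold changes of −0.85 (adjusted p = 0.0509) and −0.25 (adjusted p = 0.141). PTK7, a kinase-dead receptor known to activate ADGRD1 from a facing cell, had 43.1, 39.5 and 41.5 CPM in shPRAME and 2.57, 2.23 and 2.50 CPM in shCtrl. It rose far beyond its spread (log2 fold change 4.08 ± 0.07, adjusted p = 8.68e-18), beside an ADGRD1 of 8 counts in shPRAME and 1 in shCtrl. RECK, the partner of ADGRA2, had 10.2 ± 1.13 CPM in shPRAME and 7.84 ± 0.38 CPM in shCtrl (log2 fold change 0.37, adjusted p = 0.00122), and WNT7B had 0 counts in shPRAME and 8 in shCtrl.

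**Figure D5:**
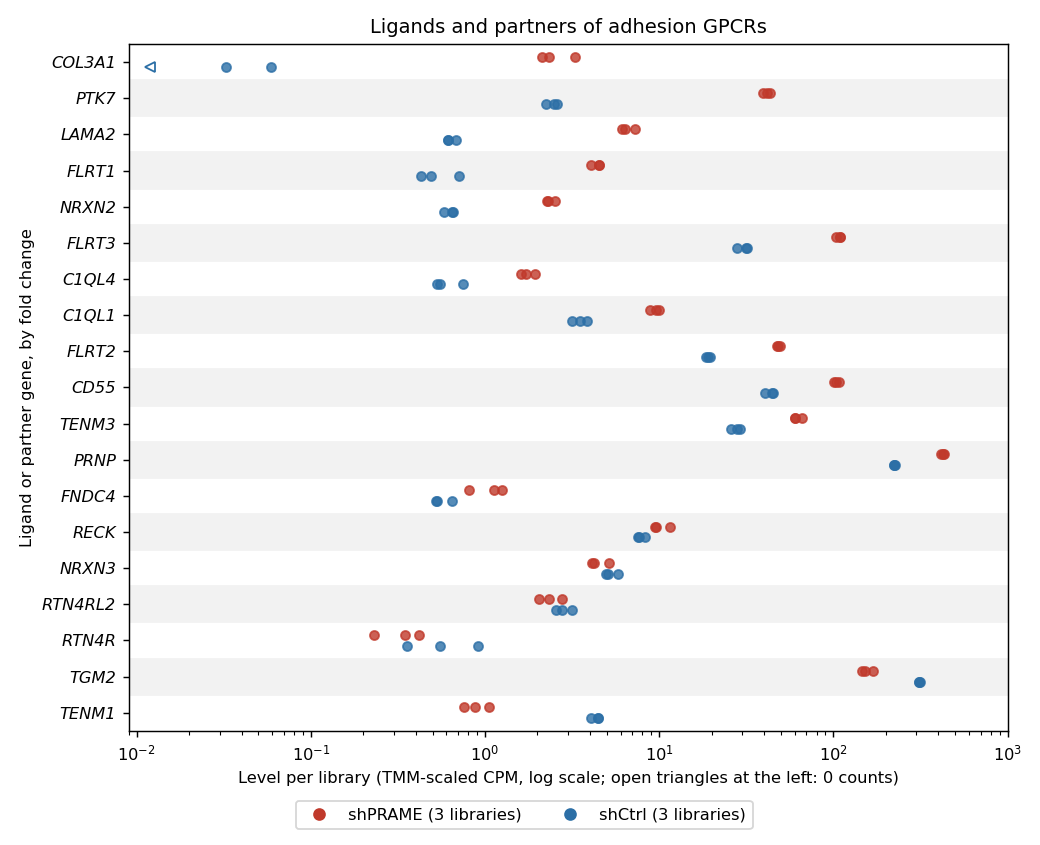
Levels of the tested ligands and partners in each library, TMM-scaled CPM on a log axis, in order of fold change, with shPRAME above shCtrl in each row. From COL3A1 and PTK7 at the top to RECK the shPRAME points lie to the right, while at the bottom TGM2 (155 CPM in shPRAME, 311.0 CPM in shCtrl) and TENM1 (0.893 and 4.32 CPM) lie to the left.

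Downstream of the receptors, 38 genes of G protein subunits and downstream signalling showed no common direction: 34 were tested, of which 11 rose, 15 fell and 8 did not pass (median −0.08). GNAS, the subunit that stimulates cAMP formation, had 822.0, 828.3 and 817.5 CPM in the shPRAME libraries, against 365, 373 and 369 CPM in the shCtrl libraries (log2 fold change 1.16 ± 0.02, adjusted p = 2.07e-17). GNAQ, which couples to phospholipase C, had 119 ± 0.80 CPM in shPRAME and 71.6 ± 2.47 CPM in shCtrl. The beta subunits GNB1 (256 ± 3.43 CPM in shPRAME, 385 ± 5.07 CPM in shCtrl) and GNB2 (90.3 ± 2.21 and 142.4 ± 3.54 CPM) fell. The subunits of the G12/13 class, named after their values were seen, differed less: GNA13 had 119 ± 1.13 CPM in shPRAME and 106 ± 3.91 CPM in shCtrl, and GNA12 had 60.5 ± 1.46 and 75.6 ± 1.43 CPM.

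Among the scaffold proteins, DLG1, the binding partner of ADGRA3, had 46.2 ± 1.67 CPM in shPRAME and 33.6 ± 0.46 CPM in shCtrl (log2 fold change 0.46), and MAGI2, a synaptic scaffold, had 2.46 ± 0.31 and 0.279 ± 0.067 CPM. SHANK1, a scaffold of excitatory synapses, fell to 6 counts in shPRAME, against 560 counts in shCtrl (log2 fold change −6.50 ± 0.25, adjusted p = 2.08e-13), and TJP1 fell to 108.0 ± 2.24 CPM in shPRAME, against 135 ± 2.16 CPM in shCtrl.

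The secretin receptors, hormone receptors whose helix bundle is the closest relative of the adhesion family, were mostly silent. Of 15 genes, 6 had 0 counts in all libraries and 4 were tested, of which 3 rose and 1 fell (median 2.84). Of all tested genes, 37.7% rose and 36.8% fell. CALCR and PTH1R, which rose, were tested through shPRAME alone, since no shCtrl library reached the filter of 0.297 CPM. They had to differ, and the median of the list rests on them. ADCYAP1R1, the receptor of the neuropeptide PACAP, had 15.2, 12.6 and 13.6 CPM in the shPRAME libraries, against 0.917, 0.857 and 0.714 CPM in the shCtrl libraries (log2 fold change 4.04 ± 0.13, adjusted p = 1.78e-14). No other secretin receptor averaged 1 CPM in either group. Of 8 fibroblast markers, a list set beside the collagen ligand COL3A1 that it also holds, 5 of 7 tested rose and 2 fell (median 2.08), with a sum of 88.1 to 95.3 CPM in shPRAME and 112.5 to 116.3 CPM in shCtrl. COL1A2 had 2157 counts in shPRAME and 0 in shCtrl, so that it and COL3A1 could be tested only through shPRAME and had to differ. PDGFRB fell to 17.4 ± 1.32 CPM in shPRAME, against 64.3 ± 1.86 CPM in shCtrl. The part of these genes in the COL3A1 difference was not tested.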

How the data were processed

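PolyA RNA from 6 A375SM libraries (3 shPRAME, 3 shCtrl) was measured. The deposited files hold raw counts per NCBI gene identifier, whole numbers that were not normalized, per the file headers and values. The submitters' processing notes name fastp, STAR, Salmon, GRCh38 and hg38 without versions or roles. No source used here states the counting tool or its use of strand. Overlapping, antisense and near-identical genes are therefore uncertain. Each file had 40929 rows; the 34 repeats of an identifier were summed, and 40789 of 40895 identifiers matched RefSeq (GRCh38.p14), which gave symbols and coordinates. Lengths are those of the longest GENCODE transcript.

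Counts were tested with edgeR 4.0.16 (R 4.3.3: filterByExpr, TMM, glmQLFit, glmQLFTest, 2-sided, group as the single term) and adjusted by Benjamini-Hochberg over 15954 genes. Levels are TMM-scaled CPM, mean ± SD of 3 libraries; an SE is the size of the log2 fold change over the square root of the F statistic. Exact 95% intervals and the floor of 3 counts cover counting error only. Data were also simulated for 15954 genes, of which 200 were changed, and 15688 were tested. There the test recovered 24 of 50 genes at a fold of 1.2, 34 of 50 at 1.5, 42 of 50 at 2 and 49 of 50 at 4, with 11 false calls. In the real libraries 74.4% of tested genes passed, so these rates do not carry over to the reported comparison. Replicates differed by more than sampling noise, with a chi-square per degree of freedom of 2.4 to 7.63.

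Alternatives were RLE or total-only scaling, no filter, a filter of 1 CPM in 3 libraries, DESeq2 1.42.0, limma-voom (limma 3.58.1), a minimum fold of 1.2, a replicate block, leaving out each library, and removal of the median log2 fold change of the 20 tested genes on each side. Members and gene lists were chosen with earlier results of these data known. Every member was named, and from each list up to 2 genes per direction with the smallest adjusted p at a mean of at least 1 CPM; others were named after their values were seen. A gene that this rule would name is not reported here.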

Additional observations from a re-analysis of the deposited data

How the results depend on the processing

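The higher members numbered 12 as reported, 10 with DESeq2, 11 with the stricter filter or a minimum fold of 1.2, and 13 with total-only scaling or the regional median removed. The lower members numbered 5, and ranged from 4 (minimum fold or regional median removed) to 6 without the filter on low counts, where ADGRF3 passed (adjusted p = 0.0298). Genes passing fell to 7726 with a minimum fold of 1.2, against 11875 as reported, since that test asks for a larger change, and PRAME stayed between −1.69 and −1.50 on the log2 scale under every alternative. Leaving out each library in turn gave 11390 to 11704 passing genes, 11 to 12 higher and 5 lower members. ADGRL1, which did not pass, changed its sign to 0.037 with total-only scaling and to 0.097 with the regional median removed, and it ranged from −0.052 to 0.023 as each library was left out (0.0084 and 0.023 without shPRAME library 2 and without shPRAME library 3). CELSR2 changed its sign to 0.078 with the regional median removed. The adjusted p of CELSR3 was 0.0708 and that of ADGRB2 0.0595 with a minimum fold of 1.2. Of 299 member values under 15 alternatives, 285 kept direction and side of the threshold.

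The replicate numbers did not pair the libraries: deviations of same-numbered libraries correlated at −0.0589, −0.119 and −0.0999. With the replicate block 11603 genes passed, with 12 higher and 5 lower members and a PRAME log2 fold change of −1.55. Depth limits what can be said of the 10 members with counts but no test, whose highest sum over all libraries was 34 counts.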
